A study of Mus musculus with 4 samples.

Results

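Semaphorins, ephrins, Slits and netrins are 4 ligand families of axon guidance, and their receptors are the plexins and neuropilins, the Eph kinases, the Robos and the Unc5 proteins. These genes were examined by RNA-seq in myeloid cells sorted from mouse skin tumours. Members were all rows of the deposited table whose symbol starts with Sema, Plxn, Efna, Efnb, Epha, Ephb, Robo, Slit (without the Slitrk genes) or Unc5, together with Nrp1, Nrp2, Ntn1 and Ntn4, provided that the normalised read count was at least 10 in at least 2 of the 4 libraries. By symbol, 68 of the 23420 genes of the table qualified, and 50 of these passed the minimum, among 12463 genes that passed it in all. Of the other 18, 8 had no read in any library and 10 had reads but too few. Unc50 enters through its prefix alone, since it encodes a protein of the secretory pathway and no netrin receptor, and it is counted as a member throughout.

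The cells were sorted by flow cytometry as positive for the integrin CD11b, found on myeloid cells, and for CD200R1, to which the surface protein CD200 binds, from cutaneous squamous cell carcinomas grown orthotopically in mice of the FVB/N strain. The WT group (2 libraries) is labelled wild type. In the EpiKO group (K14Cre;CD200fl/fl, 2 libraries) Cre under the keratin 14 promoter removes floxed Cd200 in keratin 14 expressing epidermal cells, and not in the sorted myeloid cells as such. EpiKO was compared with WT. The labels name no treatment, age or tumour time and no pooling of animals, nor do they say whether the 2 libraries of a group came from separate mice, so p-values rest on a spread between samples that could be purely technical.

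Semaphorins are secreted or membrane-bound ligands that bind plexins, often with a neuropilin as co-receptor, and the plexins then act on small GTPases and the cytoskeleton. Ephrins are membrane-bound ligands of the Eph receptor tyrosine kinases and signal where cells touch. Slits are secreted ligands of the Robos, and netrins bind Dcc, neogenin and the Unc5 receptors. All 4 systems were described first in the growing axon and are also known to steer the adhesion and migration of leukocytes, where Sema4d, Sema4a and Sema7a are among the immune semaphorins.

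The libraries held 15884132 to 21244158 reads in genes, and 1 read was worth a normalised count of 0.841 to 1.16. Of the sort and macrophage markers, Itgam stood at 26151 to 40692 and Csf1r at 45316 to 70480 in the 4 libraries, and Cd200r1 at 318 and 293 (WT) against 1101 and 612 (EpiKO). Transcripts of other cells were present. The 10 keratinocyte markers had a sum of 4879 in WT replicate 1, while WT replicate 2 had 108 and EpiKO 65.7 and 52.9. The 6 fibroblast markers summed to 17940 to 31236, with overlapping groups, and the 8 blood endothelial markers to 208 to 306. The 4 markers of simple epithelium summed to 1270 and 633 (WT) against 7141 and 5930 (EpiKO), carried by Krt8, Krt18 and Cdh1, while the defining marker Epcam was at 156.5 and 7.57 (WT) against 6.46 and 7.56 (EpiKO). The 4 dendritic cell markers summed to 165 and 123 (WT) against 60.3 and 82.2 (EpiKO). Ccr7 gave the largest part, at 116 and 56.3 (WT) against 32.3 and 35.9 (EpiKO). Zbtb46 of that list was at 26.7 and 19.3 (WT) against 22.6 and 23.6 (EpiKO). The 3 B cell markers never summed to more than 5.80. The part of these cells in the results below was not tested, and in bulk samples a smaller number of cells of a type cannot be told apart from less RNA per cell.

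Of the 50 guidance genes, 2 rose and 1 fell in EpiKO (limma, Benjamini-Hochberg adjusted p under 0.05). Sema7a, a membrane-anchored immune semaphorin, and Ntn1, the secreted ligand netrin-1, rose, and Plxna2, a semaphorin receptor, fell. The 3 calls are 6% of the members, where 0.947% of all tested genes were called, 0.417% as higher and 0.530% as lower. By contrast, the share of members whose groups did not overlap, 27 of 50 or 54.0%, was near the 47.1% of all tested genes. Without overlap, 17 of the 50 members were higher in EpiKO, against 23.3% of all tested genes, and 10 of the 50 lower, against 23.8%. An unadjusted p under 0.05 was found for 19 members, or 38.0%, against 15.6% of all tested genes. With any 1 of the 4 libraries left out, limma called 0 of the 50 members, while between 17 and 24 had an unadjusted p under 0.05. DESeq2 on the recovered reads called 12 members, 7 higher and 5 lower, or 24%, where it called 6.85% of all tested genes, and edgeR called 2, Ntn1 and Sema7a. Members were chosen with earlier results of these data known, so these shares are no independent support.

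**Figure D1:**
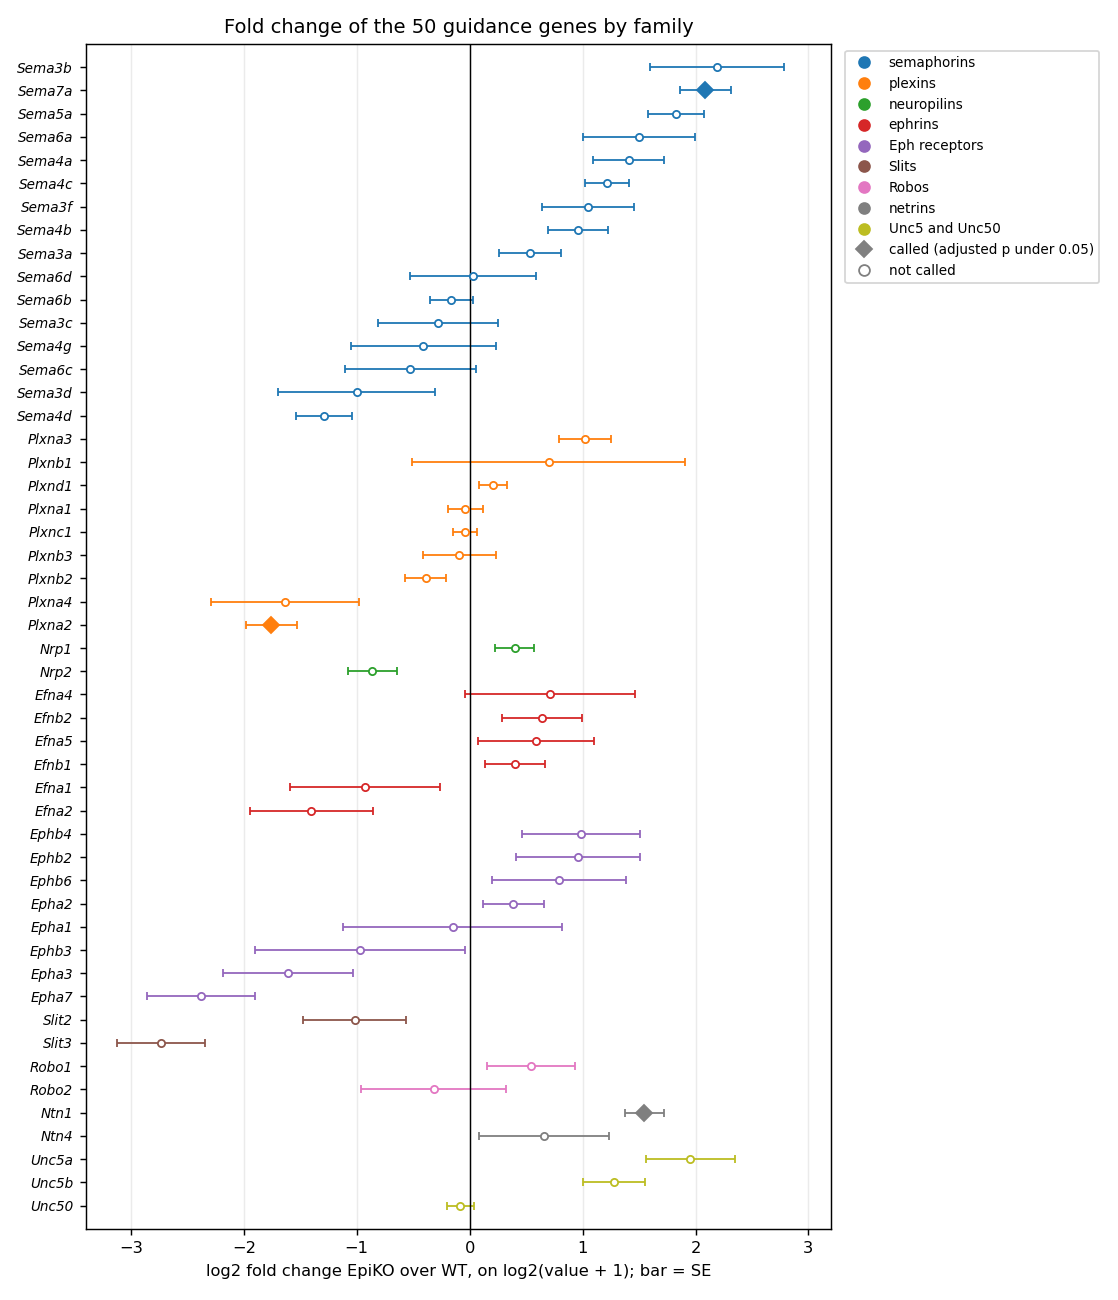
Log2 fold change of EpiKO over WT on the log2(value + 1) scale (horizontal axis) for the 50 guidance genes, ordered by family, with the standard error as a bar and filled diamonds for called genes. Sema7a and Ntn1 lie to the right at 2.09 and 1.55, and Plxna2 lies to the left at -1.76. Of the abundant plexins, Plxna1 and Plxnc1 lie near 0, Plxnd1 at 0.21 and Plxnb2 at -0.39.

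Differences were often wide without a call. In 19 members, or 38.0%, the groups did not overlap and the log2 fold change was at least 1 in size, against 8.45% of all tested genes. Such a difference was upward in EpiKO for 11 of the 50 members, against 4.96% of all tested genes, and downward for 8 of the 50, against 3.49%. Large fold changes are commoner among low genes, and the members are low, with a median of the mean values of 92.4 against 479 for all tested genes. Among members with a mean under 100, 9 of 26 (34.6%) had such a difference, against 23.3% of all tested genes at that level. Among members with a mean of 100 or more it was 10 of 24 (41.7%), against 4.51%. The median log2 fold change of the 50 members was 0.30 and that of all tested genes -0.0021, but the members' median was 0.14 with edgeR and 0.13 with DESeq2 on the recovered reads. Below, a log2 change is EpiKO over WT on the log2(value + 1) scale, where changes of low genes come out too small, ± gives its standard error, and adjusted p-values are those of limma over all 12463 genes (Benjamini-Hochberg). Values given as a pair against a pair are WT replicates 1 and 2 against EpiKO replicates 1 and 2.

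**Figure D2:**
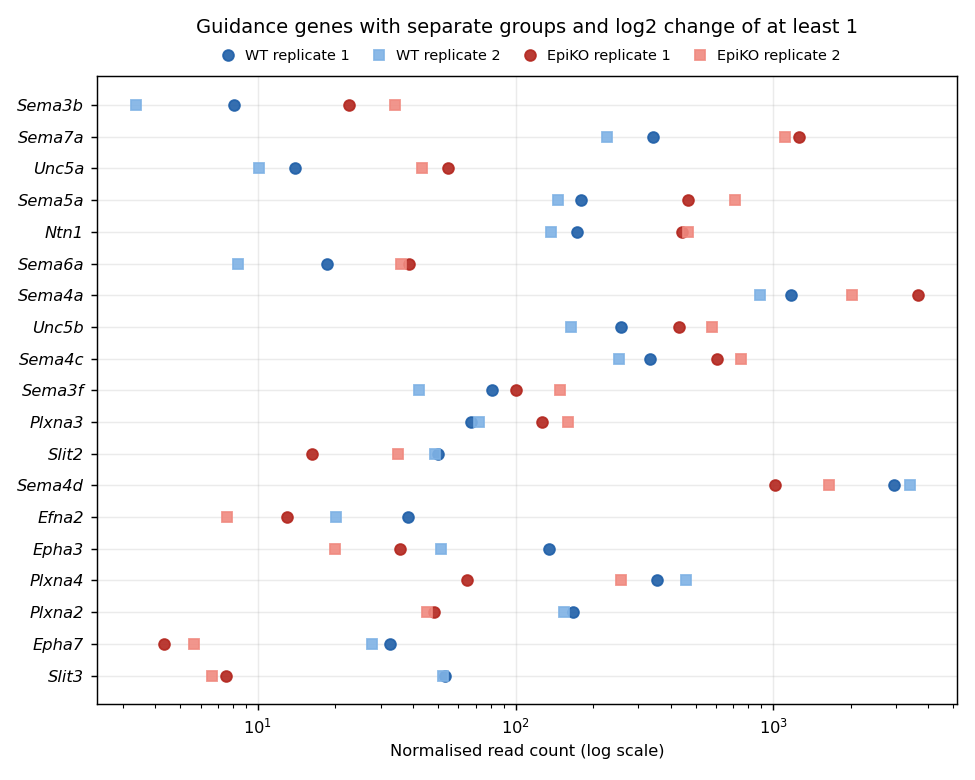
Normalised read count (log axis) in each of the 4 libraries for the 19 guidance genes whose groups did not overlap and whose log2 fold change was at least 1 in size, ordered by fold change. The blue WT points and red EpiKO points are far apart and tight for Slit3, Plxna2, Sema7a and Ntn1, and spread within a group for Epha3, Plxna4 and Sema4a.

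Sema7a, a semaphorin held in the membrane by a lipid anchor that binds plexin C1 and beta-1 integrins, stood at 342 and 226 (WT) against 1264 and 1110.5 (EpiKO). Both EpiKO libraries lay above both WT libraries, and the mean was 4.18 times higher. The means were 284 ± 81.9 and 1187 ± 108 (SD, n = 2), and Sema7a rose by 2.09 (log2, SE 0.224, limma adjusted p 0.0425). Leaving out any 1 library kept the fold change between 1.79 and 2.38, with limma adjusted p-values of 0.1002 to 0.162, and without trend the limma adjusted p was 0.0819. The gene (ENSMUSG00000038264) spans 57940112 to 57962865 of chromosome 9 (mm10, plus strand) and no other gene of GENCODE M21 overlaps its exons.

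The sequence of the 250 bases before the most upstream RefSeq start is shown for 4 members with separate groups. Sema7a, Sema4a and Unc5b are the 3 higher members with a match of any searched motif and no annotated exon in this window, and Epha7 is a lower member with both, so each shows where in the window a match lies. They are from GRCm38.p6, the build of mm10, and are written 5′ to 3′ on the gene's strand, with matches of the searched motifs in capitals (TTTCC is GGAAA on the other strand). The regions are chr9:57939862-57940111 on the plus strand for Sema7a, chr3:88461183-88461432 on the minus strand for Sema4a, chr10:60831582-60831831 on the minus strand for Unc5b and chr4:28812881-28813130 on the plus strand for Epha7.
Sema7a: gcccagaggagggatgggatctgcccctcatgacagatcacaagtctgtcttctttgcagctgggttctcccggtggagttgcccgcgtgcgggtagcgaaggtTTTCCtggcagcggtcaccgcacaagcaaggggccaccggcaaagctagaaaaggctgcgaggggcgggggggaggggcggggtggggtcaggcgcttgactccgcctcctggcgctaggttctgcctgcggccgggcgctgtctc
Sema4a: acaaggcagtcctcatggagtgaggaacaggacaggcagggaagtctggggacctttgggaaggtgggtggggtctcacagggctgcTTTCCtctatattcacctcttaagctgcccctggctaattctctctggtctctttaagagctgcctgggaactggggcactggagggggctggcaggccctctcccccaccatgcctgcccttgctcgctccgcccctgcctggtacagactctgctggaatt
Unc5b: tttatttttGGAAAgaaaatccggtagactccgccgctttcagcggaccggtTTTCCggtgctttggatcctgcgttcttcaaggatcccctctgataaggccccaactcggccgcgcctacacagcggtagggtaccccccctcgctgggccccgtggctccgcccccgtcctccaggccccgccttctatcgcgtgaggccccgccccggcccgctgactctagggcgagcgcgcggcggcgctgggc
Epha7: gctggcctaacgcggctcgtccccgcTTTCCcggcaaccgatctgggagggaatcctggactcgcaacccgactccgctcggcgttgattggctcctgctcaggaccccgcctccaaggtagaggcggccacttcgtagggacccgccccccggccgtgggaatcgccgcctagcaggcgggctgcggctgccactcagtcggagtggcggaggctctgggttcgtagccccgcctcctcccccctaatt
Of the 50 members, 44 had a RefSeq promoter, Ntn1 not among them. The GC content of those printed was 66.4% for Sema7a, 59.6% for Sema4a, 66.8% for Unc5b and 69.2% for Epha7. On either strand 4 motifs were searched: ACGTG, the core of the hypoxia response element, TGAGTCA, the AP-1 site, TTCNNNGAA, the site of STAT factors, and GGAAA, the core of NFAT sites, which can overlap TTCNNNGAA. ACGTG was found in 7 of the 44 member promoters (15.9%) and in 16.5% of all 27025 promoters of this length. It was found in 0 of the 14 promoters of members with separate groups and a log2 fold change of at least 1. TGAGTCA was in 1 member promoter, that of Sema4c (2.27% against 4.43% of all), TTCNNNGAA in 1, that of Epha3 (2.27% against 7.14%), and GGAAA in 20 (45.5% against 55.6%). GGAAA was in 3 of the 7 higher and 4 of the 7 lower members of these 14. The printed promoters were picked for a match, so that their holding GGAAA is no result.

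Among the other membrane-bound semaphorins, several had higher values in EpiKO and Sema4d had lower ones, without a call. Sema5a, which carries thrombospondin repeats beside its semaphorin domain, stood at 179.7 and 146 (WT) against 468 and 713 (EpiKO) (log2 change 1.83 ± 0.248, limma adjusted p 0.0549). The groups were separate, and the mean was 3.62 times as high in EpiKO. Sema4a, an immune semaphorin of antigen-presenting cells, was at 1173 and 893 (WT) against 3660.2 and 2021 (EpiKO), so that EpiKO replicate 1 was far above all other libraries (log2 change 1.41 ± 0.315, limma adjusted p 0.134). Sema4c, a ligand of plexin B2, was at 334 and 251 (WT) against 605 and 752 (EpiKO), again with separate groups (log2 change 1.22 ± 0.197, limma adjusted p 0.0710). Its relative Sema4b was at 153 and 120.2 against 326 and 215, a log2 fold change of 0.96 (SE 0.266).

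Sema4d, known as CD100, is shed from leukocytes and binds plexin B1, plexin B2 and, on immune cells, CD72. It stood at 2949 and 3404 (WT) against 1021 and 1642 (EpiKO), and every EpiKO value was below every WT value. The mean was 2.39 times higher in WT, which gave a log2 change of -1.29 ± 0.248, limma adjusted p 0.103. Sema4d was thus the only 1 of the 5 tested class 4 genes with a negative fold change and no overlap, while Sema4a, Sema4b and Sema4c were higher without overlap and Sema4g overlapped, at 11.6 and 13.4 against 5.38 and 15.1. DESeq2 called Sema4a and Sema4c higher and Sema4d lower, with adjusted p of 0.000218, 0.000191 and 0.000159. Normalised reads per kb of exon, a scale on which genes can be compared, put Sema4d above Sema4a in WT (414 against 191) and below it in EpiKO (173 against 526), as means of 2 libraries.

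The class 6 semaphorins, transmembrane ligands of A-type plexins, gave no call among 4 tested. Sema6a was at 18.5 and 8.41 (WT) against 38.8 and 35.9 (EpiKO), higher in both EpiKO libraries (log2 change 1.498 ± 0.498, limma adjusted p 0.245), with 0.97 without WT replicate 2. Sema6b, the most abundant of the class by count, overlapped between the groups at 491 and 695 against 545 and 501 (log2 change -0.16 ± 0.194, limma adjusted p 0.770). Sema6d differed more within the groups than between them, at 422 and 174 (WT) against 187 and 407 (EpiKO), with means of 298 and 297. Sema6c stood at 16.2 and 12.6 against 6.46 and 14.2.

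Secreted class 3 semaphorins were low, and none of 5 tested genes was called. Sema3b had the highest positive log2 change of all members, 2.19 (SE 0.595, adjusted p = 0.177 by limma), on few reads: 7 and 4 in WT and 21 and 36 in EpiKO. Sema3f, a ligand of neuropilin-2, was at 81.1 and 42.0 (WT) against 100.1 and 148 (EpiKO) (log2 change 1.05 ± 0.405, limma adjusted p 0.313), with 0.58 without WT replicate 2. Sema3a, a ligand of neuropilin-1, was at 148 and 100.03 against 155 and 202, so that the groups were separate by a narrow gap. Sema3c and Sema3d overlapped, with log2 fold changes of -0.28 (SE 0.533) and -1.0 (SE 0.694). Over all 16 tested semaphorins 1 was called, 9 were higher and 1 lower without overlap, and 6 overlapped (against 0.947% called, 23.3% higher and 23.8% lower without overlap among all tested genes), with a median log2 fold change of 0.75.

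Plexins gave the most abundant transcripts of the whole set, and of 9 tested 1 was called, against 0.947% of all tested genes. Plxna2 stood at 167 and 155 (WT) against 48.4 and 45.4 (EpiKO). The values were close within each group, and the mean was 3.43 times higher in WT. Plxna2 fell by 1.76 (log2, SE 0.223, limma adjusted p 0.0490), with means going from 161 ± 8.66 to 46.9 ± 2.18 (SD, n = 2). This value is at the edge of the threshold: the adjusted p was 0.0502 with a pseudocount of 0.5, 0.0506 with quantile normalization, 0.0529 without trend and 0.0517 with edgeR, and 0.121 to 0.248 with a library left out (limma). Plxna2 (ENSMUSG00000026640) spans 194618218 to 194816869 of chromosome 1 (mm10, plus strand) and no other gene overlaps its exons.

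The other A-type plexins differed from each other. Plxna4 was at 355 and 457 (WT) against 64.6 and 257 (EpiKO), low mainly in EpiKO replicate 1 (log2 change -1.63 ± 0.656, limma adjusted p 0.334). Without EpiKO replicate 1 its log2 fold change was -0.65, and without EpiKO replicate 2 it was -2.62. Plxna3 had a positive log2 change, at 67.2 and 72.3 against 127 and 159.7 (log2 change 1.02 ± 0.232, limma adjusted p 0.131). Plxna1, a partner of Trem2 and its adaptor Tyrobp in myeloid cells, overlapped at 1617 and 1543 against 1752 and 1351 (log2 change -0.038 ± 0.154, limma adjusted p 0.939).

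Plxnb2 and Plxnd1 led all members on the scale of normalised reads per kb of exon. Plxnb2, a receptor of class 4 semaphorins, had a mean of 1812 per kb over the 4 libraries (range 1518 to 2381), and Plxnd1, known from vessels and from macrophages, one of 1079 (939 to 1164), and these ranges did not overlap. The counts of Plxnb2 were 13527 and 18378 (WT) against 12338 and 11717 (EpiKO), without overlap (log2 change -0.39 ± 0.180, limma adjusted p 0.389, between -0.61 and -0.17 with a WT library left out). Those of Plxnd1 were 7798 and 6852 against 8358 and 8502, also without overlap (log2 change 0.21 ± 0.122, limma adjusted p 0.512, with 0.11 without WT replicate 2). Plxnc1, the receptor of Sema7a, overlapped at 809 and 789 (WT) against 751 and 801 (EpiKO), and gave a log2 change of -0.042 ± 0.107, limma adjusted p 0.900. Plxnb3 overlapped at 89.2 and 70.6 against 59.2 and 93.6, and Plxnb1, a receptor of Sema4d, ranged from 3.36 to 42.9 with the lowest and the highest value both in WT.

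**Figure D3:**
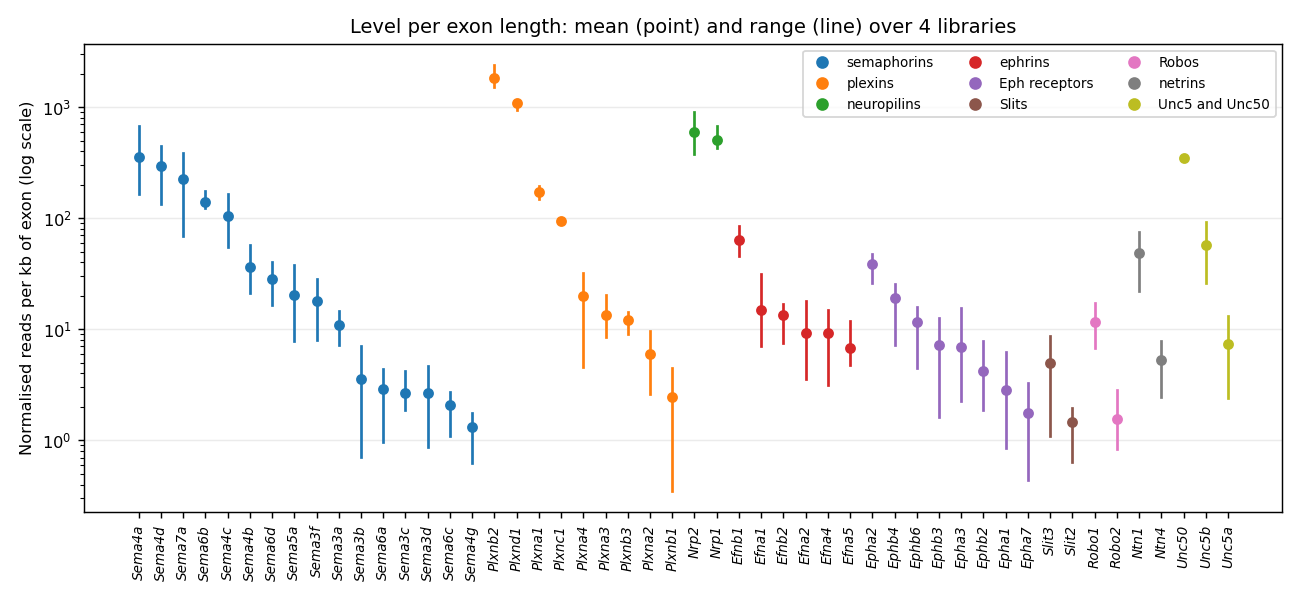
Normalised reads per kb of exon (log axis) of the 50 guidance genes by family, with the mean over the 4 libraries as a point and the lowest to highest library as a line. Plxnb2 at 1812 and Plxnd1 at 1079 stand highest, then Nrp2, Nrp1, Sema4a, Unc50 and Sema4d, while all ephrins except Efnb1 and all Eph receptors except Epha2 have means under 20.

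Neuropilins, the co-receptors of class 3 semaphorins and of vascular growth factors, followed the leading plexins in level, at a mean of 596 reads per kb for Nrp2 (range 375 to 910) and 509.8 for Nrp1 (range 426 to 671), ranges that overlapped. The 2 genes had fold changes of opposite sign. Their groups did not overlap, as was so for 47.1% of all tested genes. Nrp2 stood at 7518 and 10781 (WT) against 5511 and 4444 (EpiKO) (log2 change -0.86 ± 0.218, limma adjusted p 0.161). Nrp1 stood at 4167 and 4389 (WT) against 4833 and 6564 (EpiKO) (log2 change 0.40 ± 0.174, limma adjusted p 0.366). DESeq2 called Nrp2 lower, with an adjusted p of 0.00545, and did not call Nrp1, whose log2 change was 0.18 without EpiKO replicate 2 and 0.62 without EpiKO replicate 1.

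Netrins and their Unc5 receptors had positive log2 changes in each of the 4 tested genes, of which 1 was called. Of all 12463 tested genes, 6189 had a positive log2 change and 0.947% were called. Ntn1 stood at 174 and 138 (WT) against 441 and 467 (EpiKO), with both EpiKO libraries far above both WT libraries. Its mean was 2.91 times higher, at 156 ± 25.5 against 454 ± 18.0 (SD, n = 2), and Ntn1 rose by 1.55 (log2, SE 0.174, limma adjusted p 0.0427). With 1 library left out the fold change stayed between 1.38 and 1.71, with limma adjusted p-values of 0.124 to 0.189, and without trend it was 0.0762. Ntn1 (ENSMUSG00000020902) spans 68209364 to 68400823 of chromosome 11 (mm10, minus strand) and no other gene overlaps its exons. Ntn4, a netrin of basement membranes, overlapped at 22.0 and 9.25 against 18.3 and 29.3 (log2 fold change 0.65, SE 0.577).

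Unc5b, the netrin receptor known from vessels and macrophages, stood at 257 and 164 (WT) against 432 and 578 (EpiKO), with separate groups (log2 change 1.28 ± 0.276, limma adjusted p 0.123). Unc5a, another receptor of the family, was low, at 13.9 and 10.1 against 54.9 and 43.5 (log2 change 1.96 ± 0.396, limma adjusted p 0.105). It shares exon sequence with Hk3, a hexokinase gene on the other strand, which was at 734 and 767 (WT) against 1455 and 1461 (EpiKO) and was called (log2 fold change 0.96, adjusted p = 0.0399 by limma). Without use of the strand in counting, reads from the sequence shared by Unc5a and Hk3 cannot be told apart. The strand setting is not given in the sources used here. Sema4c, Plxna4, Plxna1, Efna4, Ephb4, Epha1 and Plxnb1 likewise have exons that overlap a gene of the opposite strand. Unc5c, Unc5d and Unc5cl had no read in any library, and the other netrin receptors Dcc and Neo1 stood at 0 in all libraries and at 152 to 278, respectively. Unc50, the member by prefix alone, was at 576 and 556 against 557 and 513.

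Both tested Slits had negative log2 changes without overlap, where 23.8% of all tested genes were lower without overlap, and neither was called. Both were low, with means of 29.9 for Slit3 and 37.4 for Slit2. Slit3 stood at 53.3 and 52.1 (WT) against 7.54 and 6.62 (EpiKO), which are 46 and 62 reads against 7 and 7. It had the most negative fold change of all members, -2.74 (SE 0.392, adjusted p = 0.0567 by limma), and was called by DESeq2 (adjusted p = 0.00110) and by limma without trend (adjusted p = 0.0333). Slit2 was at 49.8 and 48.8 (WT) against 16.1 and 35.0 (EpiKO), also without overlap (log2 change -1.02 ± 0.456, limma adjusted p 0.378). Its log2 change was -0.48 without EpiKO replicate 1 and -1.55 without EpiKO replicate 2. Their receptors overlapped between groups: Robo1 was at 198 and 113 against 167 and 285, and Robo2 at 48.7 and 14.3 against 20.5 and 21.7. Slit1 had between 0 and 3 reads a library, Robo4, an endothelial member, between 2 and 6, and Robo3 none.

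Ephrins gave no call among 6 tested genes. The ephrin-A genes were low, with means from 14.8 to 27.5, and Efna2 alone of the 4 had separate groups, at 38.2 and 20.2 (WT) against 12.9 and 7.56 (EpiKO) (log2 change -1.40 ± 0.543, limma adjusted p 0.312). Efna3, under the minimum, had 20 reads in WT replicate 1, 3 in WT replicate 2 and 0 in both EpiKO libraries. Of the ephrin-B genes, Efnb1 was at 219 and 157 against 206 and 293 and Efnb2, a marker of arterial endothelium, at 96.2 and 51.3 against 116 and 104, with log2 fold changes of 0.40 (SE 0.264) and 0.64 (SE 0.356). The groups were separate for Efnb2 and overlapped for Efnb1. Efna1, at 58.0 and 17.7 against 12.9 and 20.8, Efna4, at 18.5 and 5.04 against 11.8 and 23.6, and Efna5, at 22.0 and 19.3 against 20.5 and 48.2, overlapped.

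Eph receptors gave no call among 8 tested either, and 2 EphA genes were lower without overlap, as were 23.8% of all tested genes. Epha7 stood at 32.5 and 27.7 (WT) against 4.31 and 5.67 (EpiKO), which are 28 and 33 reads against 4 and 6 (log2 change -2.38 ± 0.477, limma adjusted p 0.104). Epha3 was at 134 and 51.3 (WT) against 35.5 and 19.8 (EpiKO), with WT replicate 1 well above the rest (log2 change -1.61 ± 0.573, limma adjusted p 0.278). Without WT replicate 1 that fold change was -0.92. Epha2, the most abundant Eph receptor per kb, overlapped at 194 and 123 against 184 and 221. Ephb4 was at 95.0 and 33.6 against 108 and 119, Ephb2 at 46.4 and 23.5 against 43.1 and 98.3 and Ephb3 at 83.5 and 33.6 against 10.8 and 63.3, and only Ephb4 had separate groups.

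WT replicate 1, the library with the high keratinocyte genes, was at least 2 times WT replicate 2 in 15 of the 50 members (30.0%), against 4.38% of all tested genes. Of these 15, 14 had a mean under 100, which is 53.8% of the members at that level, against 15.8% of all tested genes at it. Only ratios in this direction were counted, and the cause was not tested. Of the 8 tested Eph receptors 5 were among the 15. The widest gaps were those of Plxnb1 at 42.9 and 3.36, Epha1 at 24.3 and 3.36, Efna4 at 18.5 and 5.04 and Robo2 at 48.7 and 14.3. Without WT replicate 1 the fold change of 3 of the 15 turned from negative to positive: Epha1 from -0.15 to 1.12, Robo2 from -0.32 to 0.53 and Sema3c from -0.28 to 0.27, none called. That of Efna1 went from -0.93 to -0.099 and that of Ephb3 from -0.98 to -0.33. Sema7a, Ntn1 and Plxna2 were not among the 15, and without WT replicate 1 their log2 fold changes were 2.38, 1.71 and -1.701.

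**Figure D4:**
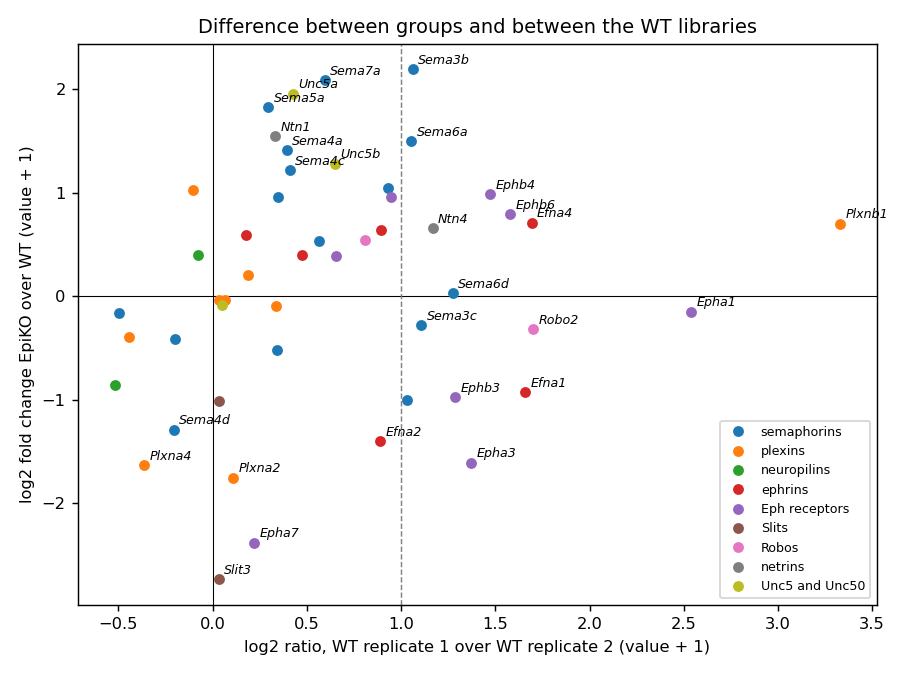
Log2 fold change of EpiKO over WT (vertical axis) against the log2 ratio of WT replicate 1 to WT replicate 2 (horizontal axis), both on value + 1, for the 50 guidance genes, with a dashed line at a ratio of 2. Both axes share the WT values. Plxnb1 and Epha1 lie farthest to the right, while Slit3 and Plxna2 lie near 0 on the horizontal axis and far down.

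Partner genes of the 4 systems, a list of 92 co-receptors, further ligands, kinases, exchange factors, GTPases, cytoskeletal effectors and proteases, gave 3 calls among 78 tested (3.85%, against 0.947% of all tested genes), 1 higher and 2 lower. The list was chosen with earlier results of these data known, so this share is no independent support. Itga1, the integrin alpha-1 chain that pairs with beta-1 as a collagen receptor and a receptor of Sema7a, stood at 48.7 and 41.2 (WT) against 305 and 301 (EpiKO). It rose by 2.73 (log2, SE 0.206, limma adjusted p 0.0329), while Itgb1, the beta-1 chain, was at 19492 and 19548 against 18086 and 15919 (log2 fold change -0.20, SE 0.131). Srgap3, a GTPase-activating protein of the family that acts below Robo receptors, fell by 2.28 (log2, SE 0.198, limma adjusted p 0.0334), its values being 385 and 467 (WT) and 94.7 and 78.4 (EpiKO). Its relative Srgap2 was at 1966 and 2282 against 1825 and 2288, with overlap. Abl2, a tyrosine kinase of cytoskeletal signalling, fell by 1.39 (log2, SE 0.121, limma adjusted p 0.0334), its values being 3593 and 3098 (WT) and 1243 and 1294 (EpiKO), and its relative Abl1 was at 2057 and 2573 against 2413 and 3183. These 3 calls too were lost with any 1 library left out, at adjusted p of 0.0828 to 0.185 (limma), and without trend Abl2 (0.0661) and Srgap3 (0.0559) missed the threshold.

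**Figure D5:**
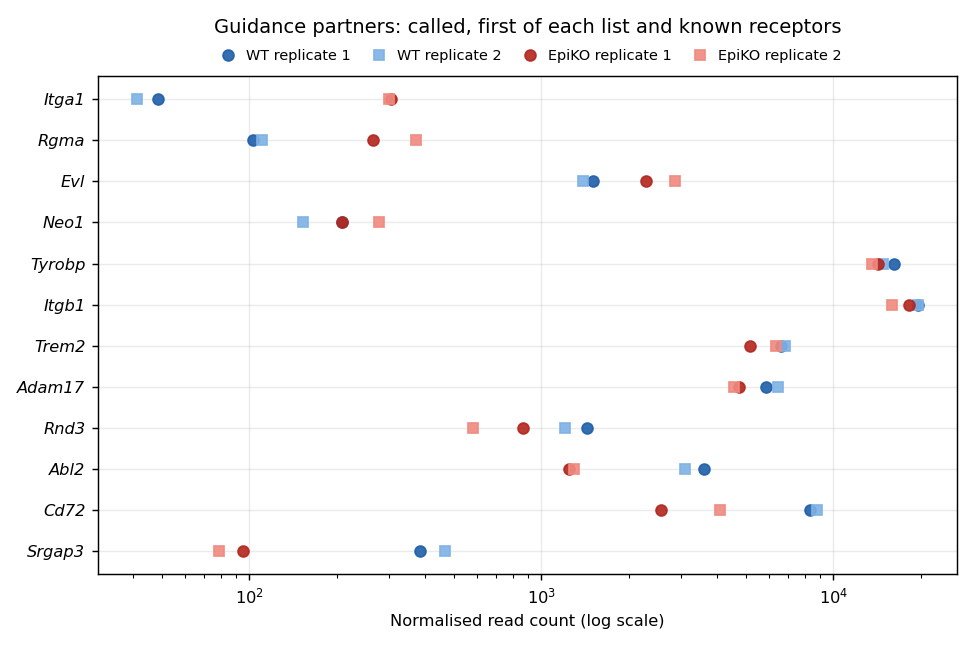
Normalised read count (log axis) in each library for the called partner genes, the gene of smallest p in each partner list and selected receptors, ordered by fold change. Itga1 at the top and Srgap3 and Abl2 near the bottom have wide gaps between the blue WT and red EpiKO points, while Itgb1, Tyrobp and Trem2 lie close together.

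The remaining partners were not called, and the median log2 fold change of all 78 was -0.027. Among receptors, Cd72, which binds Sema4d, was at 8348 and 8753 (WT) against 2562 and 4090.3 (EpiKO) (log2 change -1.40 ± 0.238, limma adjusted p 0.0809), and the adhesion molecule L1cam at 618 and 808 against 383 and 152. Trem2 and Tyrobp, partners of Plxna1, were at 6631 and 6802 against 5167 and 6352 and at 16191 and 14843 against 14218 and 13611. Among further ligands, Rgma, which binds neogenin, was at 103 and 110.1 (WT) against 266 and 370.5 (EpiKO) (log2 change 1.55 ± 0.220, limma adjusted p 0.0567), and the vascular growth factor gene Vegfc at 146 and 173 against 59.2 and 67.1 (log2 change -1.32 ± 0.226, limma adjusted p 0.0769). The receptor kinase gene Met had a log2 change of 0.61 (SE 0.184), and the ligand genes Rgmb and Flrt2 had 0.64 (SE 0.183) and 1.0105 (SE 0.314).

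Inside the cell, the kinase gene Src and the adaptor genes Nck2 and Gipc1 had log2 changes of -0.60 (SE 0.262), 0.95 (SE 0.337) and 0.20 (SE 0.103). The exchange factor gene Farp1, which acts below A-type plexins, was at 152 and 72.3 against 284 and 331, while Vav3 and Arhgap35 had log2 changes of 0.32 (SE 0.102) and -0.22 (SE 0.124). Cytoskeletal effectors gave 0 calls among 15 by limma, where 6 had an unadjusted p under 0.05 and DESeq2 called 1. Of all tested genes, limma called 0.947%, 15.6% had an unadjusted p under 0.05 and DESeq2 called 6.85%. The largest fold change of these effectors was that of Evl, at 1503 and 1386 against 2289 and 2859.8 (0.83, SE 0.145). Pak1, Dpysl2 and Dpysl3 of that list had -0.45 (SE 0.106), -0.38 (SE 0.124) and 0.58 (SE 0.154). Small GTPases gave 0 calls among 11 by limma, where 1 had an unadjusted p under 0.05 and DESeq2 called 1 lower. Without overlap 1 was higher and 6 were lower, against 23.3% and 23.8% of all tested genes. Of the 6, Rhoa, Rap1a and Rap1b had log2 changes of only -0.086, -0.14 and -0.11. Rnd3 was at 1431 and 1199.5 against 868 and 585 (log2 change -0.88 ± 0.221, limma adjusted p 0.161). Its relatives Rnd1 and Rnd2 had log2 changes of -0.75 (SE 0.354) and -0.56 (SE 0.308), and Rras2 0.44 (SE 0.258). The protease genes Adam17, Adam10, Mmp14 and Furin had -0.40, 0.32, 0.062 and -0.10.

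Ligands and their receptors can be set side by side from these values. For Sema7a, called higher, Plxnc1 had a log2 fold change of -0.042, Itgb1 one of -0.20 and Itga1, called higher, one of 2.73. For Ntn1, called higher, Unc5b had 1.28 and Neo1 0.43 (SE 0.245), neither called. For Sema4d, at -1.29, Plxnb2 had -0.39, Cd72 -1.40 and Plxnb1 0.70, the last with an SE of 1.21, overlapping groups and 0.052 by DESeq2. For Slit3, at -2.74, Robo1 had 0.54 (SE 0.390) and Robo2 -0.32 (SE 0.642), with overlapping groups. These are messenger levels of a sorted population, and protein was not measured.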

How the data were processed

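RNA was measured in 4 libraries, 2 WT and 2 EpiKO, and all 4 columns were matched to a sample by title. Per the submitters' processing notes, the build was mm10 and the tools included featureCounts 1.5.0-p3, STAR 2.5.2b, bcl2fastq 2.17 and DESeq2. In addition, the labels' protocols name poly-A selection and an Illumina TruSeq RNA kit. The annotation, the strand setting and how multi-mapping reads were handled: not given in the sources used here. Each deposited value is a signal, namely a gene's reads over the size factor of its library, which the authors applied, as read from the values, since 100% came out as whole reads to within 1e-06.

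Groups were tested with limma 3.58.1 under R 4.3.3 (trend, robust, two-sided) on log2(value + 1) for the 12463 genes that reached 10 in 2 or more libraries, with Benjamini-Hochberg adjustment over all of them and calls at 0.05. No covariate was used. An exact permutation test of 2 against 2 cannot give a p below 0.333. Alternatives were edgeR 4.0.16 (TMM, quasi-likelihood) and DESeq2 1.42.0 (Wald) on recovered reads, and the fits were tested on simulated data. With 1 library left out, a group of 1 borrows its spread from the other group. Members and lists were chosen with earlier results of these data known. Full statistics are given for members called, members without overlap and with a log2 fold change of at least 1, and the 10 highest means, and partners are named if called or among the 4 smallest p of their list. Other genes named with values (Sema3a, Sema4b, Robo1, Efnb1, Itgb1, Srgap2, Abl1, Trem2, Neo1 and the like) are members or partners outside this rule and were chosen after their values were seen, as examples. Of 92 partners all were found, 1 by an older symbol (Arhgap35 as Grlf1), and of 71 cell type markers 70 (Adgre1 as Emr1). Exon lengths, coordinates and overlaps are from GENCODE M21 on mm10, where all 68 genes were located. Marker lists not described with the results, with overlapping groups, summed to 980 to 3770.0 for lymphatic endothelium, 878 to 1662 for pericyte and smooth muscle, 26.9 to 40.6 for Schwann cell and melanocyte, 100.1 to 1764 for T and NK cell, 5.88 to 205 for mast cell and basophil, and 744 to 2577 for neutrophil. Pdpn carried the sum of lymphatic endothelium, Acta2 and Pdgfrb that of pericyte and smooth muscle, and Cd4 that of T and NK cell. The other markers of these lists, among them Prox1, Rgs5, Myh11 and Cd3e, were under 10 in each library. The 6 myeloid markers summed to 336824 and 285714 in WT and to 444044 and 372386 in EpiKO. Lyz2 carried this sum, at 207009 and 157099 (WT) against 325763 and 235159 (EpiKO). Itgam and Cd200r1 also had positive log2 changes, of 0.40 and 1.43, while Adgre1, Csf1r and Cd68 had -0.20, -0.23 and -0.032. None of these markers was called.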

Additional observations from a re-analysis of the deposited data

How the results depend on the processing

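The number of guidance genes called, 3 in the report, was 12 with DESeq2, 6 at a threshold of 0.1, 1 without trend (Slit3) and 0 to 0 with a library left out, and between 2 and 4 with 2 other pseudocounts, 2 other filters, 2 other scalings and edgeR. The number of partners called, also 3, was 10 with DESeq2, 7 at a threshold of 0.1, 1 without trend and 0 to 0 with a library left out. For all genes the 118 calls became 854 with DESeq2, 428 at a threshold of 0.1, 38 without trend and 0 to 4 with a library left out. In those limma fits with a library left out, 17 to 24 members and 14 to 21 partners had an unadjusted p under 0.05. The causes were not tested. Of 29 genes followed through 13 or 14 alternatives each (Efna2, Epha7, Sema3b, Sema6a, Slit2 and Unc5a were not tested at the filter of 50), 26 kept their direction in each that was run. The groups of these 26 did not overlap, so leaving out a library could not turn their direction, and that part is no support. The exceptions were 3 nearly flat genes, none called: Plxnc1 was at 0.0042 without EpiKO replicate 1, Sema6b at 0.088 without WT replicate 2 and Plxna1 at 0.15 without EpiKO replicate 2, with ranges down to -0.089, -0.41 and -0.22 with another library left out. Scaling to equal totals moved the median of all genes to -0.030. No paired analysis was possible because the labels give no replicate numbers and the numbers used here follow the order of the samples. A gene at 3 reads has a value of about 2.52 to 3.48, which limits what can be said of members such as Epha7 and Slit3 in EpiKO.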

Other observations

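Some guidance genes lie close to each other on the chromosome. Sema3b and Sema3f, 72.3 kb apart on chromosome 9 of mm10, were both higher in EpiKO without overlap, with log2 fold changes of 2.19 and 1.05, neither called. Efna1 and Efna4, on chromosome 3 with Efna3 between them, had log2 fold changes of -0.93 and 0.71, and both overlapped between the groups. Sema3d and Sema3a, 536 kb apart on chromosome 5, had -1.0 and 0.54, Robo1 and Robo2, 846 kb apart on chromosome 16, had 0.54 and -0.32, and Plxnb3 and Plxna3, 557 kb apart on the X chromosome, had -0.091 and 1.02.

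Sema3e, under the minimum, had 5 and 7 reads (WT) against 9 and 19 (EpiKO), and Epha4, also under it, had 14 and 10 reads against 4 and 5. Neither was tested.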
